A study of Mus musculus with 15 samples.

Results

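The Sox9 gain-of-function (Sox9-GOF) effect, meaning Sox9-GOF tumours minus control tumours of the same model, was measured in 2 mouse brain tumour models, labelled HGG and EPN, and the effect in HGG was subtracted from the effect in EPN for every gene. HGG and EPN stand for high-grade glioma, a malignant tumour of glial character, and ependymoma, a tumour that resembles ependymal cells, the lining of the ventricles. The comparison takes 12 of the 15 libraries of the series: HGG control, HGG Sox9-GOF, EPN control and EPN Sox9-GOF, with 3 libraries each. The 3 libraries of the remaining group, HGG Sox9-LOF, enter only an alternative estimate of the spread. Each library is bulk poly(A) RNA of brain tumour tissue frozen in trizol. The labels give the model and the Sox9 status of each tumour, but neither strain, age, sex, driver alleles nor the way Sox9 gain was made. Whether a replicate is 1 animal or a pool is likewise not stated, so p-values measure only the spread between these samples. Of 24421 genes in the tables, 15130 had a mean of at least 10 scaled counts and were tested.

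SOX9 is a transcription factor with an HMG box, a DNA-binding domain that bends the helix. It directs cartilage formation in the skeleton, and in the developing brain it takes neural progenitors from making neurons to making glia, after which astrocytes and ependymal cells keep expressing it. The difference of effects asks whether a gain of the same factor moved the same genes in both tumour types. A positive difference means that the effect in EPN lay above that in HGG, and a negative one that it lay below. Effects are log2 differences of scaled count + 1, where a scaled count is the number of reads corrected for library depth over the 12 libraries together. Adding 1 makes the change of low genes look smaller than it is.

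Sox9 itself (chr11:112782224-112787760, plus strand, mm10) was higher in every Sox9-GOF library than in every control of its model. Its scaled counts were 226, 294 and 323 in HGG control and 1319.8, 1589 and 1453 in HGG Sox9-GOF. In EPN they were 1076, 1069 and 1208 in control and 2132, 1896 and 2787 in Sox9-GOF. EPN controls thus started near the level that HGG Sox9-GOF tumours reached. The effect was 1.01 ± 0.19 (SE) in EPN and 2.38 ± 0.19 in HGG, a difference of -1.37 ± 0.26 (limma adjusted p = 0.0218). Averaged over both models the effect was 1.69 ± 0.13 (limma adjusted p = 0.00096), and Sox9 was the only gene of 15130 (0.00661%) called for the average. The difference was -1.09 with adjusted p = 0.0702 after correction for GC content and length, so it was no longer called there.

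Depth ran from 4665428 to 14119140 reads. Correlations between replicates were 0.818 to 0.861 in HGG control and 0.929 to 0.964 in the other groups, so HGG controls were the least alike. The library labelled HGG control 1 stood apart: its 16 choroid plexus markers summed to 142734 scaled counts, against 2669 and 4147 in the other HGG controls and 2147 to 18587 in the other 9 libraries. Markers of lymphocytes summed to 63.3 to 14298 in HGG control, 255 to 4285 in HGG Sox9-GOF, 520.0 to 1146 in EPN control and 143 to 10196 in EPN Sox9-GOF, uneven within groups. Xist, the RNA of the inactive X chromosome, was at 5090.0, 4755 and 2910.3 in HGG control, 4664, 9.86 and 9348 in HGG Sox9-GOF, 7.61, 5249.5 and 4742 in EPN control and 0, 0.902 and 0 in EPN Sox9-GOF, so Sox9 status and sex markers moved together in part in EPN. The part that these had in the results was not tested. Ependymal and motile cilia markers, which define the cells ependymoma resembles, were low, with sums of 1097 to 1271 in EPN control against 866 to 1516 in HGG control.

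Of the 15130 genes, 938 (6.2%) had a called difference of effects, 424 (2.8%) higher and 514 (3.4%) lower in EPN. Nearly all had effects of opposite sign: 392 were higher in EPN and lower in HGG, 485 were lower in EPN and higher in HGG, 20 were higher in both and 39 were lower in both. Among all tested genes these counts were 4332, 4428, 3252 and 3090. Without HGG control 1 they were 3854, 3915, 3664 and 3596 of 15058 genes. The Pearson correlation of the EPN and HGG effects over genes was -0.249 with all libraries and -0.0315 without HGG control 1. Leaving out any other library gave -0.321 to -0.162. The excess of opposite signs over all genes thus rested largely on HGG control 1. Choosing genes by a large difference favours opposite signs, so the split among the 938 is in part a result of the choice. The EPN effect had a limma unadjusted p under 0.05 in 387 of the 938. The HGG effect alone was called in 716 of the 938, the EPN effect in 3 and neither in 219, and the larger absolute effect was the HGG one in 730. In this fit HGG thus had most of the calls: on its own it had 1890 called genes (12.5%), 885 (5.85%) higher and 1005 (6.64%) lower. EPN had 3 (0.0198%), all lower. The median absolute effect over all genes was 0.268 in EPN and 0.475 in HGG. After correction for GC content and length it was 0.345 and 0.341, and 0.273 and 0.335 with each library also recentred on its median. That correction left 86 HGG and 0 EPN calls, and library weights gave 963 and 411.

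Base composition moved with this difference. The 424 genes higher in EPN had a median transcript GC content of 57.4% and the 514 lower ones 43.3%, against 49.8% for all genes. The HGG effect fell with GC content across genes (Spearman rho -0.578 over 15018 genes, which are not independent replicates), while the EPN effect did not (rho -0.00825). The split was between groups of libraries: rho of gene level with GC was 0.189, 0.314 and 0.251 in HGG control and -0.280, -0.269 and -0.224 in HGG Sox9-GOF, and between -0.144 and 0.149 in the 6 EPN libraries. After a correction of each library for GC content and length, 106 genes (0.706%) were called, 75 (0.499%) higher and 31 (0.206%) lower, and 72 of them were among the 938. That correction shifted the median difference of all genes from -0.04 to 0.19, and recentring each library on its median left 1 called gene. The direction held for 918 of the 932 called genes that have a GC value. The part of base composition in the result was not tested.

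**Figure D1:**
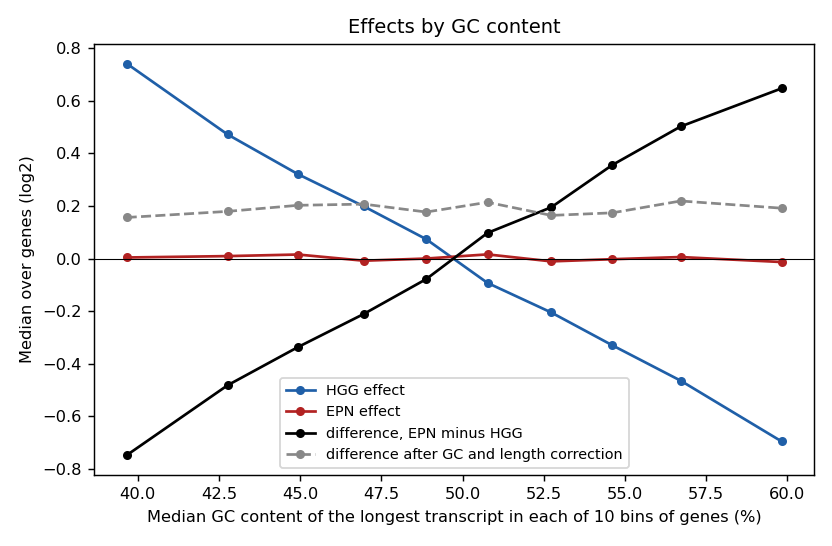
Median effect over genes (y axis, log2) in 10 equal bins of the tested genes ordered by transcript GC content (x axis, median of each bin, %). The HGG effect runs from 0.74 in the bin lowest in GC to -0.70 in the highest, the EPN effect stays within 0.02 of 0, and the corrected difference (dashed) is flat but above 0.

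The count also rested on single libraries. It was 623 (4.14%) without HGG control 1, 612 without HGG control 2 and 2145 without HGG control 3. It was 354, 266 and 91 without HGG Sox9-GOF 1, 2 and 3, and 449, 46 and 44 without EPN control 1, 2 and 3. Without EPN Sox9-GOF 1, 2 and 3 it was 808, 576 and 391. A total of 34 genes were called in the full set and in all 12 sets of 11 libraries. With the replicate number as a block within each model the count was 361 (2.39%), of which 306 were among the 938. On the recovered reads edgeR called 814 (5.38%) and DESeq2 2467 (16.4%).

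**Figure D2:**
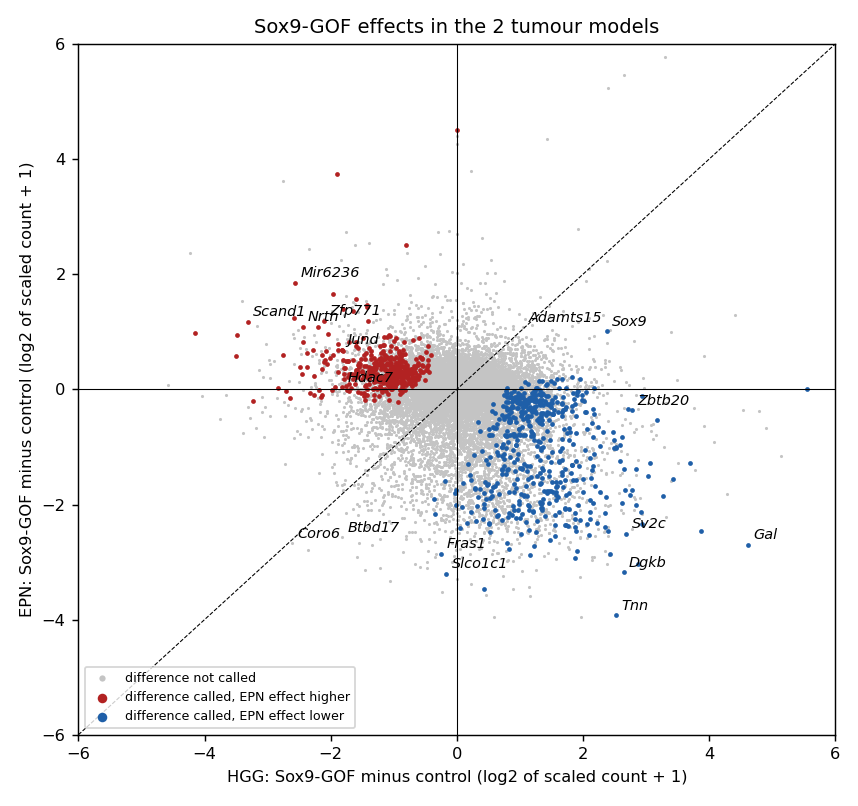
Sox9-GOF effect of each tested gene in HGG (x axis) and in EPN (y axis), both log2 of scaled count + 1, with called differences in red (424, EPN effect higher) and blue (514, EPN effect lower). Equal effects would lie on the dashed line, most coloured points lie in the 2 opposite-sign quadrants, and 3 genes lie outside the axes.

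By a test that needs both effects to be called in opposite directions (the larger of the 2 limma p-values, adjusted over all genes), 0 genes passed, and 0 passed in the same direction. edgeR also gave 0 of each. At an unadjusted p under 0.05 for both effects, limma had 491 genes: 282 lower in EPN and higher in HGG, 101 higher in EPN and lower in HGG, 84 lower in both and 24 higher in both. DESeq2 called 12 genes in opposite directions and 1, Sox9, in the same direction. Genes whose Sox9-GOF and control libraries did not overlap in either model numbered 366 (2.42%) lower in EPN and higher in HGG, 289 (1.91%) the other way, 136 (0.899%) lower in both and 60 (0.397%) higher in both.

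The promoters of 3 genes with opposite effects are shown because base composition separates the 2 directions at the transcript: Gal and Sv2c, lower in EPN and higher in HGG, and Zfp771, the reverse. Each is 250 bases before to 50 after the gene's start in the RefSeq table of GRCm38.p6, at chr19:3414495-3414794 (minus strand), chr13:96132528-96132827 (minus) and chr7:127244276-127244575 (plus), with CpG dinucleotides in capitals.
Gal: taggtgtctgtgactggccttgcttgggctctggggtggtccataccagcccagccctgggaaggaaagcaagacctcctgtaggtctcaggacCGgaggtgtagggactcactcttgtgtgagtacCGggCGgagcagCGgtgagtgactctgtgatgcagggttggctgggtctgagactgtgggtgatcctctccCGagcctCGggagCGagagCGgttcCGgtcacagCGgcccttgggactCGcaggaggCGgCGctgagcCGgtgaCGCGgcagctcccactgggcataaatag
Sv2c: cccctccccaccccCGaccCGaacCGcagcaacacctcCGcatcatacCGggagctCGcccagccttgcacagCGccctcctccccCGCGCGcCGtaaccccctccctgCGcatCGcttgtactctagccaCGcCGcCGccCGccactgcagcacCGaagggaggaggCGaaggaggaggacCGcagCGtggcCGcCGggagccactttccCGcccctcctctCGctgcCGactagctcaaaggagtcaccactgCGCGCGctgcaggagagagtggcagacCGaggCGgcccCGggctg
Zfp771: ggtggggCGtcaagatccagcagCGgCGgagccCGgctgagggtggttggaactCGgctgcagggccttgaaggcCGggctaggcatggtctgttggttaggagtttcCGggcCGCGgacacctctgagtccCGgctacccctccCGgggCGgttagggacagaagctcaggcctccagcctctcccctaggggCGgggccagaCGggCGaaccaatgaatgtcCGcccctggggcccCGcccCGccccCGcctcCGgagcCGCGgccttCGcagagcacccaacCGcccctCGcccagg
They hold 16, 32 and 25 CpG and have a GC content of 63.3%, 71.7% and 71.7%. The Zfp771 window lies inside the gene span given for Zfp771 below, so the window and that span use different starts. Over the called genes with a promoter in the table, the median promoter GC was 61.3% for 342 genes higher in EPN and 62.3% for 375 lower ones, against 60.7% for 11407 tested genes. The large gap in transcript GC was therefore not seen in promoters. The letters ACAAT (or ATTGT on the other strand), the core recognised by SOX proteins, occur in none of the 3 windows, in 22.2% of the promoters of the higher genes, in 17.9% of the lower ones and in 20.3% of all tested.

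Genes lower in EPN and higher in HGG were chosen by largest called difference among those whose groups did not overlap in either model. The lack of overlap in the genes of this direction described next therefore follows from the choice. These genes included neuropeptide and synaptic genes. Gal encodes the neuropeptide galanin (chr19:3409915-3414544). Its scaled counts were 9.03, 0 and 0.739 in HGG control and 57.2, 35.7 and 120.0 in HGG Sox9-GOF, then 29.4, 20.8 and 75.9 in EPN control and 5.24, 9.02 and 1.99 in EPN Sox9-GOF. The high group was Sox9-GOF in HGG and control in EPN, as the choice required. The difference was -7.32 ± 1.25 (limma adjusted p = 0.0189), and the HGG effect, which rests on 12 reads in the 3 controls, rose by 4.62 ± 0.89. Sv2c, a synaptic vesicle glycoprotein (chr13:95954594-96132577), had 27.1, 31.7 and 25.9 in HGG control and 126, 291 and 177 in HGG Sox9-GOF. It had 51.1, 54.4 and 60.1 in EPN control and 12.7, 9.02 and 5.96 in EPN Sox9-GOF. Relative to their level, the control groups were tighter than the Sox9-GOF groups in both models. Its difference of -5.19 ± 0.53 (limma adjusted p = 0.00778) was called in each of the 12 sets of 11 libraries, after GC correction (-4.28, adjusted p = 0.0337) and with that correction recentred (adjusted p = 0.0245), but not with correction and replicate block (adjusted p = 0.0915). The HGG effect of Sv2c rose by 2.69 ± 0.37, and its EPN effect was -2.51 ± 0.37 (limma adjusted p = 0.0585).

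Dgkb, a diacylglycerol kinase of neurons (chr12:37817726-38634239), had 41.9, 97.1 and 262 scaled counts in HGG control and 599, 570.4 and 785 in HGG Sox9-GOF. In EPN it had 99, 88 and 253 in control and 44.1, 12.6 and 3.98 in Sox9-GOF, a difference of -5.82 ± 1.14 (limma adjusted p = 0.0225). Npy2r, a receptor for neuropeptide Y (chr3:82538383-82548084), had 0.821, 16.9 and 40.6 and 46, 137 and 81.5 in HGG. It had 25, 33.6 and 75.9 and 14.2, 1.8 and 1.99 in EPN, a difference of -5.90 ± 1.52 (limma adjusted p = 0.0463). HGG control 1 was the lowest HGG library for both genes, and without it the differences were -5.19 and -4.60. Scg2, a precursor of secretory granule peptides (chr1:79434669-79440120), had 125, 365 and 1247 and 2852, 1376 and 2307 in HGG, then 154, 318 and 501 and 103, 52.3 and 10.9 in EPN. Its difference was -5.29 ± 1.26 (limma adjusted p = 0.038), and adjusted p was 0.058 without HGG control 1. Tnn, the extracellular matrix protein tenascin N (chr1:160085029-160153580), had 7.39, 6.33 and 4.43 and 31.9, 51.6 and 35.7 in HGG and 554, 63.7 and 14.2 and 5.24, 11.7 and 0.994 in EPN. EPN control 1 held most of the Tnn reads, and the difference of -6.44 ± 1.54 (limma adjusted p = 0.0382) was called in 4 of the 12 sets of 11 libraries. After GC correction none of Dgkb, Npy2r, Scg2 and Tnn was called (adjusted p = 0.0617, 0.0915, 0.0675 and 0.0711).

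Genes higher in EPN and lower in HGG, taken like those above among named genes with a mean of at least 1 log2 CPM whose groups did not overlap in either model, included a miRNA locus, a growth factor and developmental regulators. Mir6236 (chr9:110281287-110281409) had 1691, 3284 and 2909 scaled counts in HGG control, 916, 231 and 364 in HGG Sox9-GOF, 202, 124 and 259 in EPN control and 659.7, 333 and 1422 in EPN Sox9-GOF. Its difference was 4.43 ± 0.83 (limma adjusted p = 0.0207). Reads at this locus can come from ribosomal RNA, and the locus belongs to the library quality list. The 6 tested members of that list, Mir6236 included, had a median difference of 1.90. Nrtn, neurturin, a ligand of the GDNF family (chr17:56751325-56757530), had 28.7, 50.7 and 12.6 and 5.2, 4.55 and 2.75 in HGG, then 84.9, 31.3 and 58.5 and 109.9, 131 and 107 in EPN. The difference of Nrtn was 3.53 ± 0.74 (limma adjusted p = 0.026). Zfp771, a zinc finger protein (chr7:127244274-127254803), had 332, 369.5 and 379 and 81.7, 95.6 and 73.3 in HGG and 96.8, 63.7 and 103 and 229, 164 and 206 in EPN. Its difference of 3.29 ± 0.34 (limma adjusted p = 0.00778) was called in each of the 12 sets of 11 libraries and after GC correction (2.29, adjusted p = 0.0473). It was not called with that correction recentred (adjusted p = 0.0554) or with correction and replicate block (adjusted p = 0.0915), nor were Mir6236 and Nrtn with the correction alone (adjusted p = 0.0605 and 0.122).

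Tbx6, a T-box factor of the presomitic mesoderm (chr7:126781483-126785560), was at 14, 21.1 and 10.3 in HGG control and 5.94, 0.759 and 0.916 in HGG Sox9-GOF. In EPN it was far higher, at 408, 577 and 613 in control and 895, 827 and 1073 in Sox9-GOF, with a difference of 3.26 ± 0.69 (limma adjusted p = 0.0271). Hes7, a NOTCH-driven repressor of the segmentation clock (chr11:69120404-69124055), had 5.75, 10.6 and 7.39 and 0.743, 2.28 and 2.75 in HGG and 175, 104 and 129.6 and 343, 311 and 386 in EPN. Its difference was 3.01 ± 0.55 (limma adjusted p = 0.0201), where HGG Sox9-GOF holds 7 reads in all. Tmem238, a small membrane protein (chr7:4784557-4789656), had 76.4, 71.8 and 34.7 and 14.9, 16.7 and 15.6 in HGG, then 14.1, 8.1 and 12.6 and 30.7, 32.5 and 31.8 in EPN. The difference of Tmem238 was 3.21 ± 0.55 (limma adjusted p = 0.0189). After GC correction none of Tbx6, Hes7 and Tmem238 was called (adjusted p = 0.0807, 0.0617 and 0.0639).

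**Figure D3:**
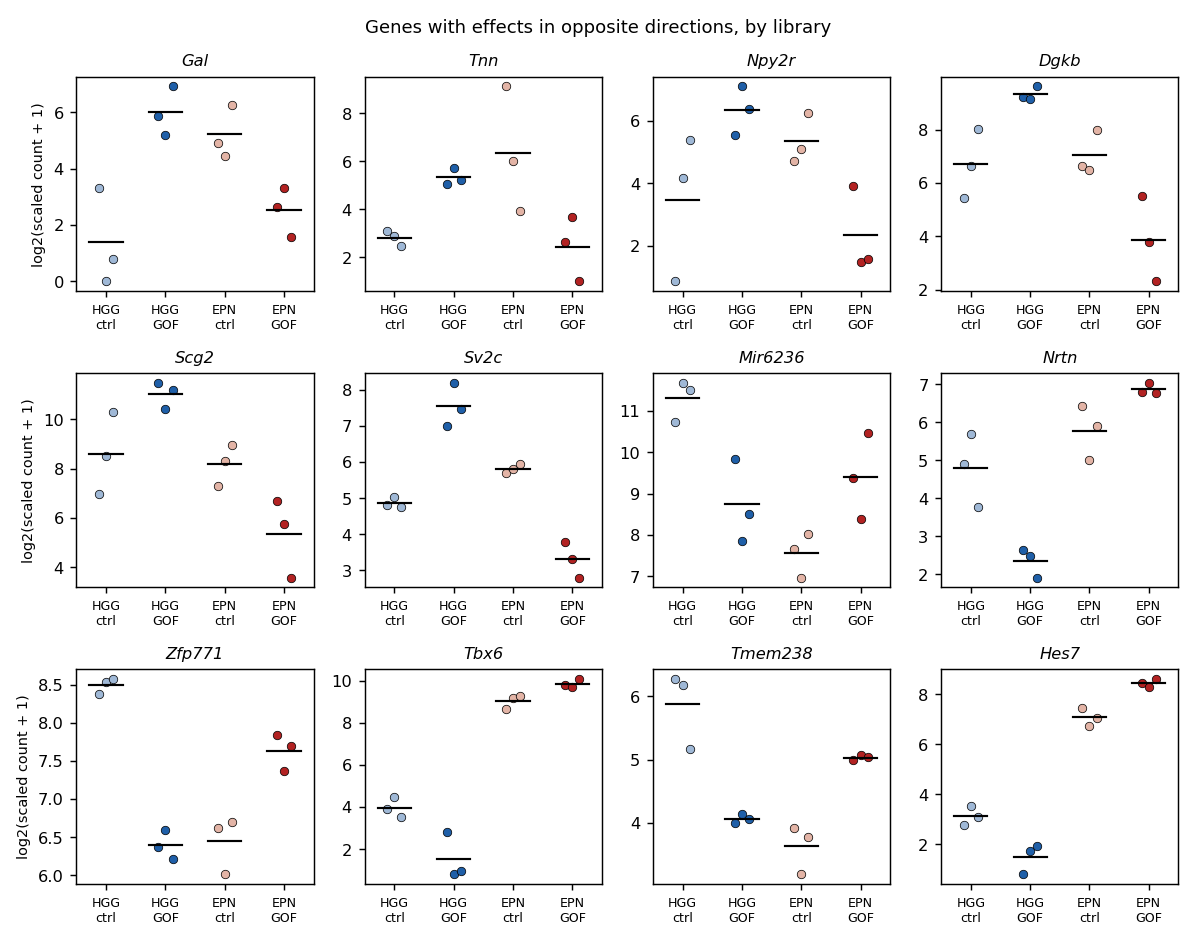
Levels of the 12 named genes with effects in opposite directions, as log2(scaled count + 1) on the y axis of each panel, in 4 groups of 3 libraries (points, with the group mean as a bar). In the first 6 panels Sox9-GOF is high in HGG and low in EPN, and in the last 6 the reverse, as the choice of these genes required.

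The 12 genes that DESeq2 called in both models in opposite directions were named after their values were seen. Lower in EPN and higher in HGG were Sv2c, Fut9, Abca5, Cadm2, Ncam2, Nebl, Tspan12, Rab39b and Zfp605, and higher in EPN and lower in HGG were Zfp771, Rbm42 and an unnamed transcript model. Ncam2 is an adhesion molecule of neurons and had 63.2, 163 and 137 in HGG control, 527, 558 and 460.0 in HGG Sox9-GOF, 76.1, 71.8 and 114 in EPN control and 30.7, 22.5 and 25.8 in EPN Sox9-GOF. Fut9, which makes the Lewis x carbohydrate of neural progenitors, had 104, 167 and 271, 699, 795 and 703, 93.6, 116 and 204 and 45.6, 19.8 and 20.9 in the same order. In both genes each model's groups did not overlap. Rbm42, an RNA-binding protein, had 949, 1145 and 1193, 589, 585 and 569, 515, 546 and 589.7 and 868, 856 and 805 in that order. Scand1, a protein with a SCAN domain and the highest positive difference of the genes looked up after their values were seen, had 746, 1005 and 615, 95.1, 69 and 68.7, 186, 83.4 and 90.1 and 282, 321 and 179.9, a difference of 4.49 ± 0.49 (limma adjusted p = 0.00826), above that of Mir6236, but its EPN groups overlapped.

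The 3 genes called in EPN were also looked up after their values were seen, and each fell there. Slco1c1, a thyroid hormone transporter of the blood-brain barrier and astrocytes, had 553, 624 and 493 in EPN control and 89.8, 80.2 and 28.8 in EPN Sox9-GOF, and 418, 570.1 and 667 and 395, 385 and 737 in HGG control and HGG Sox9-GOF. Its EPN effect was -3.20 ± 0.41 (limma adjusted p = 0.0427) and its HGG effect -0.17 ± 0.41. Fras1, a basement membrane protein, had EPN and HGG effects of -2.86 and -0.25, and Gpr85, an orphan receptor of neurons, -2.09 and 0.60. The difference was called for all 3 genes (limma adjusted p = 0.0217, 0.0214 and 0.0129). After GC correction it was called for Gpr85 (limma adjusted p = 0.0473) but not for Fras1 or Slco1c1. With edgeR or the replicate block none of the EPN effects was called.

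Same-direction genes, ranked by the smaller of their 2 effects among those whose groups did not overlap in either model, were chosen on these effects, so their values are a description. Higher with Sox9-GOF in both models were Sox9, Cldn34c1, Adamts15, Kcna5, Mmp16 and Hormad2. Adamts15, a protease of matrix proteoglycans, had 25.5, 29.6 and 39.9 in HGG control and 53.5, 72.8 and 72.4 in HGG Sox9-GOF, then 1275, 939 and 754 and 2524, 1574 and 2146 in EPN. Its effects were almost equal, at 1.08 ± 0.27 in EPN and 1.05 ± 0.27 in HGG, from levels that differ widely between models. Mmp16, a membrane-bound metalloproteinase, had 213, 291 and 137 and 556, 932 and 324 in HGG and 293, 643 and 685 and 789, 733 and 1088 in EPN. Kcna5, a potassium channel, had 30.4, 6.33 and 13.3 and 33.4, 38.7 and 55 in HGG and 1024, 351 and 1086 and 1309, 1099 and 2296 in EPN. Hormad2, a meiotic chromosome protein, had 0 reads in each HGG control and 1 or 2 in each HGG Sox9-GOF library, so no fold is given there, against 189, 429.5 and 413 and 471, 630.2 and 532 scaled counts in EPN. Cldn34c1, a claudin with near-identical copies on chromosome X, had 0.821, 27.5 and 22.2 and 76.5, 58.4 and 31.2 in HGG and 18.5, 40.5 and 11.1 and 53.9, 44.2 and 57.6 in EPN, and its reads may be split among those copies.

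Lower with Sox9-GOF in both models were Coro6, Btbd17, Plk5, Pcsk1n, Itih5 and Lrrc16b. Coro6, an actin-binding coronin, had 63.2, 429 and 205 in HGG control and 22.3, 19 and 53.1 in HGG Sox9-GOF, then 7.61, 13.9 and 25.3 and 2.24, 0 and 2.98 in EPN. Its effects were -2.68 ± 0.79 and -2.61 ± 0.79 in EPN and HGG. Pcsk1n, the proSAAS precursor of secretory neurons, had 1288, 5292 and 5981 and 1023, 835 and 924 in HGG and 267, 170.2 and 299 and 108, 167 and 22.9 in EPN. Itih5, a hyaluronan-binding protein, had 1243, 4707 and 1467 and 362, 857 and 915 in HGG and 717, 648 and 588 and 257, 252 and 133 in EPN. Each of the 6 was ordered the same way, HGG control highest and EPN Sox9-GOF lowest by group mean. Btbd17, Plk5 and Lrrc16b, the last an actin-capping regulator, had EPN effects of -2.57, -2.15 and -1.61 and HGG effects of -1.82, -1.76 and -1.91. Apart from Sox9, none of the 12 same-direction genes had a called difference or a called average.

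**Figure D4:**
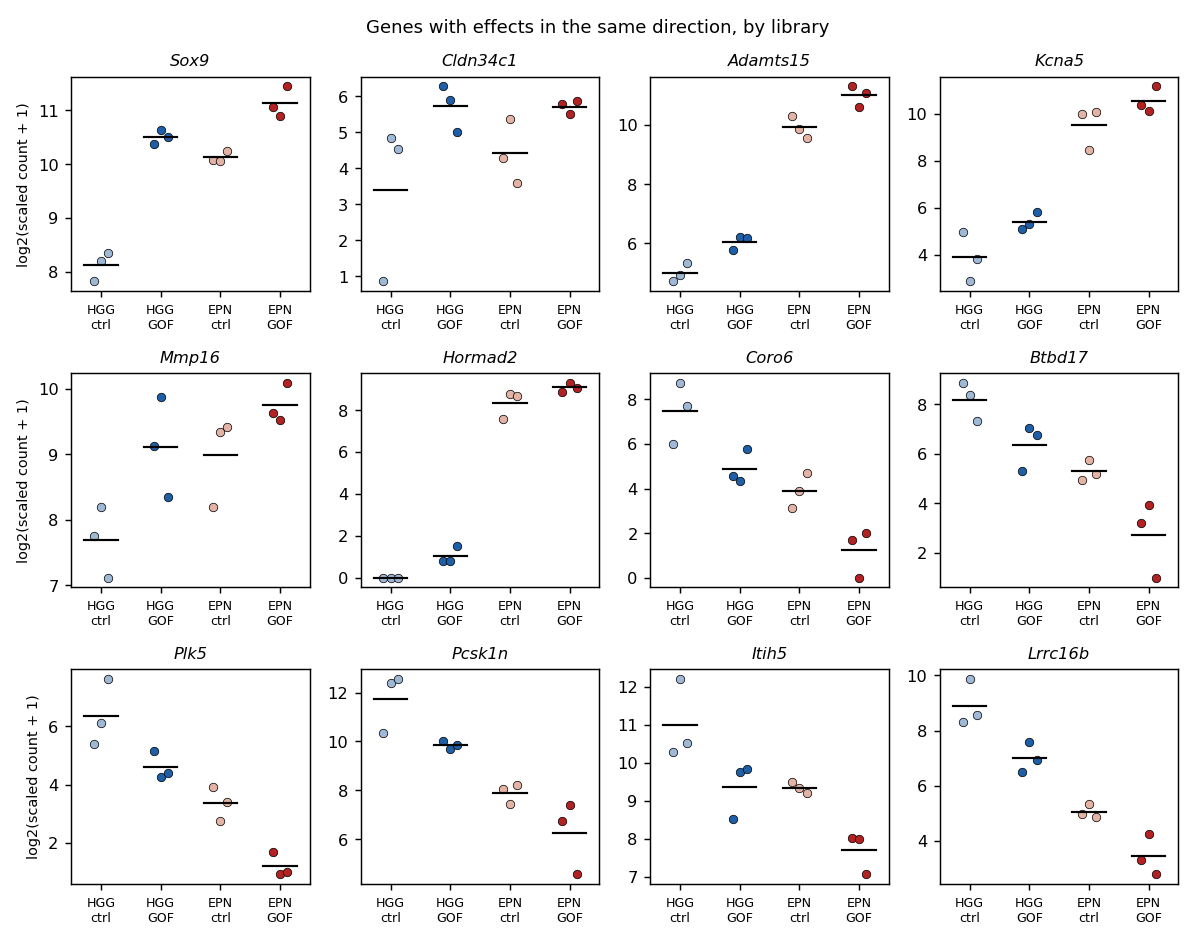
Levels of the 12 named genes with effects in the same direction, as log2(scaled count + 1) on the y axis of each panel, in 4 groups of 3 libraries (points, with the group mean as a bar). Sox9-GOF is above its control in both models in the first 6 panels and below it in the last 6.

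Lists of neuron and synaptic genes were low with Sox9-GOF in EPN and mostly not in HGG. In bulk tissue, fewer cells of a type and less RNA per cell cannot be told apart. For 23 neuron markers the median effect was -2.11 in EPN and 0.82 in HGG, against 0.00208 and 0.0136 over all genes, and 19 of the 23 were lower in EPN and higher in HGG. Their summed level was 11660 to 22655 scaled counts in EPN control and 4881 to 6921 in EPN Sox9-GOF, and 10448 to 81962 in HGG control against 40757 to 59502 in HGG Sox9-GOF. EPN groups were thus separate and HGG groups overlapped. The HGG median rested on 1 control: it was -0.13 without HGG control 1, while the EPN median stayed between -2.56 and -1.45 in the 12 sets of 11 libraries. Without HGG control 1 the HGG medians of the synaptic, inhibitory interneuron and cortical excitatory lists were 0.01, -0.26 and -0.55, against 0.94, 0.69 and 0.43 with it. Of the 23, 2 had a called difference (8.70%, against 6.2% of all genes), both lower: Map2, a dendrite microtubule protein (-1.84 ± 0.37), and Elavl4, an RNA-binding protein of neurons (-3.12 ± 0.63). Elavl4 had 143, 219.6 and 426 in HGG control, 598, 534 and 434 in HGG Sox9-GOF, 80.5, 61.4 and 114 in EPN control and 35.2, 17.1 and 12.9 in EPN Sox9-GOF. The 20 synaptic genes had a median difference of -2.52, and all 20 were negative. Of these, 5 (25%, against 3.4% of all genes called lower) were called, among them Nrxn3 (-3.45), Nlgn1 (-2.72) and Pclo (-3.42), which build the contacts between neurons. Median differences after GC correction were -2.65 for neuron and -2.14 for synaptic genes, with 0 called in each. The median difference stayed negative in the 12 sets, from -3.85 to -2.01 for neuron and from -3.10 to -1.79 for synaptic genes.

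Astrocyte markers were also lower in EPN and higher in HGG, whereas oligodendrocyte lists had negative median effects in both models with all 12 libraries. The 24 astrocyte markers had medians of -1.60 in EPN and 0.88 in HGG, 20 of the 24 were lower in EPN and higher in HGG, and 1 was called (4.17%, against 6.2% of all genes), Chrdl1, a secreted BMP antagonist (-2.96 ± 0.75, limma adjusted p = 0.0452). Their sums were 71146 to 80672 in EPN control and 20212 to 52378 in EPN Sox9-GOF, and overlapped in HGG, where the median effect was 0.22 without HGG control 1. Of 16 oligodendrocyte precursor markers 3 (18.8%, against 3.4% of all genes called lower) were called, all lower: Ptprz1, a receptor phosphatase, at 5923, 6656 and 3639.7 and 15300.2, 12046 and 7215 in HGG and 1336, 1586 and 1260.1 and 405, 595 and 239.5 in EPN, Tnr (-4.40) and Pcdh15 (-3.22). The median EPN effect of these markers was -1.73 and the median HGG effect -0.17, with 8 of the 16 lower in both models and 7 lower in EPN and higher in HGG. That HGG median was 0.38 without HGG control 2, 0.23 without HGG Sox9-GOF 3 and 0.14 after GC correction. The 16 mature oligodendrocyte markers, the genes of myelin-forming cells, had medians of -1.75 in EPN and -0.66 in HGG. Of these, 8 were lower in both and 5 lower in EPN and higher in HGG. Ugt8a (-2.23), an enzyme of myelin lipid synthesis, was the 1 called (6.25%, against 6.2% of all genes). In EPN the summed levels of both oligodendrocyte lists overlapped. Precursor sums were 16199 to 17580 in control and 7542 to 17371.5 in Sox9-GOF. Mature sums were 25261 to 47385 in control and 14338 to 31995 in Sox9-GOF. P2ry12, a microglial receptor, was the called member of 23 microglia and macrophage genes (4.35%), with scaled counts of 87.8, 334 and 302 and 632, 936 and 1351 in HGG and 527, 618 and 705 and 387, 362 and 287 in EPN. P2ry12 rose in HGG by 2.16 ± 0.45. Zbtb20, a zinc finger factor active in the glial lineage, was the called member of 10 NFI factors and glial partners of SOX9 (10%, against 6.2% of all genes). Zbtb20 rose in HGG by 2.77 ± 0.32 and had an EPN effect of -0.37 ± 0.32. After GC correction 0 members of the astrocyte, oligodendrocyte precursor, mature oligodendrocyte, microglia and NFI lists were called.

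**Figure D5:**
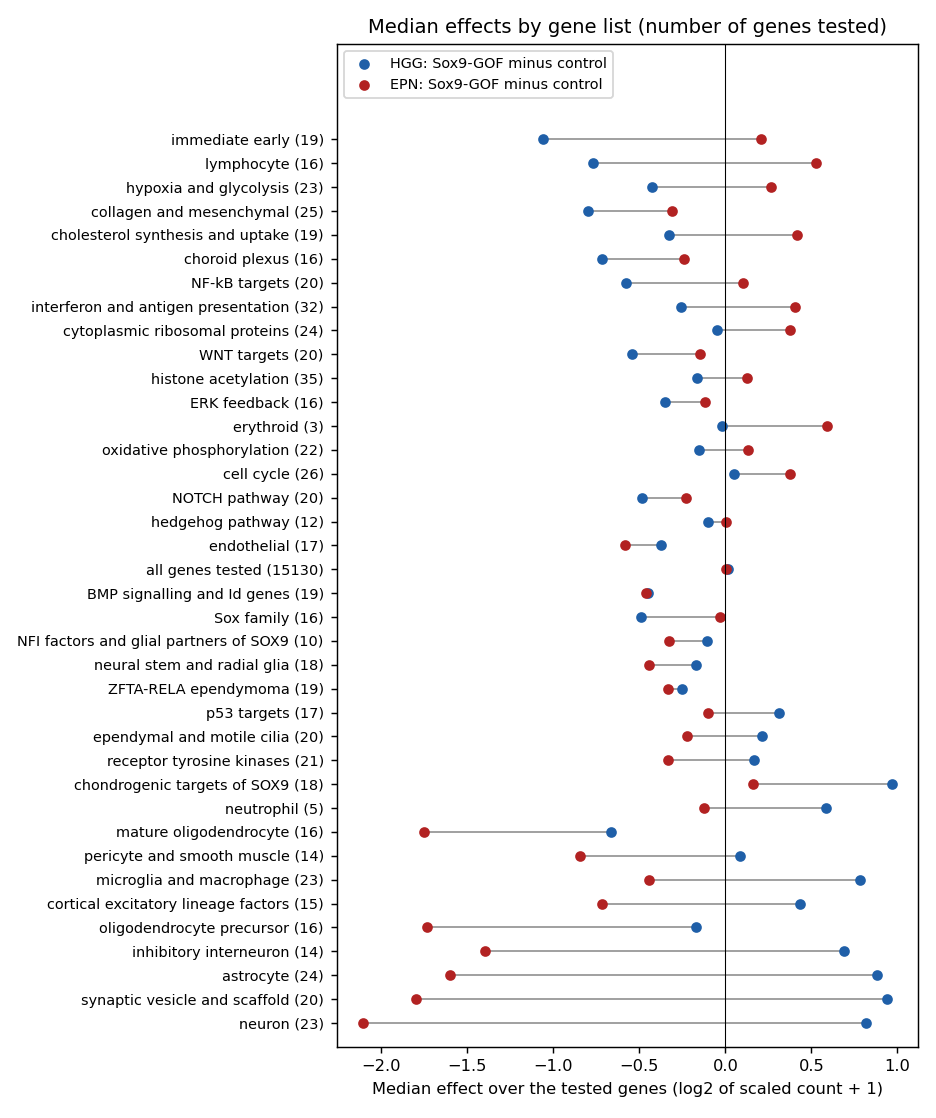
Median Sox9-GOF effect over the tested genes of each list (x axis, log2 of scaled count + 1) in HGG (blue) and EPN (red), with lists ordered by median difference and the number of genes tested in brackets. Neural lists at the bottom lie left of 0 in EPN, at -2.11 for neuron, and mostly right of it in HGG, where the neuron median of 0.82 was -0.13 without HGG control 1; the sex-linked and library quality lists are not drawn.

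Immediate early genes, which cells switch on within minutes of stimulation, lay on the other side. Of 19 tested, 4 (21.1%, against 2.8% of all genes called higher) were called, each with a positive difference: Jund, Egr1, Ier2 and Klf2. The EPN groups of Klf2 overlapped, at 177, 131 and 153 in control and 126, 202 and 107 in Sox9-GOF. In HGG Klf2 fell from 104, 95.0 and 202 in control to 32.7, 25.8 and 24.7 in Sox9-GOF. After GC correction Jund was the 1 called member. Jund, an AP-1 subunit, had 1504, 2281 and 2026 in HGG control and 535, 498 and 584 in HGG Sox9-GOF, then 893, 634 and 596 and 1139.9, 1181 and 1059 in EPN. It fell in HGG by 1.83 ± 0.20, its EPN effect was 0.69 ± 0.20, and the limma adjusted p of the difference of 2.52 was 0.0473 after GC correction, 0.0554 with that correction recentred and 0.0915 with correction and replicate block. The median effect of the list was 0.21 in EPN and -1.06 in HGG. After GC correction the median difference of the list was 1.09, against 1.41 before it.

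Chromatin regulators of histone acetylation had 4 called members of 35 (11.4%, against 6.2% of all genes), of which Hdac7 was the 1 called after GC correction. Hdac7, a deacetylase, had 535, 707 and 583 and 149, 172 and 193 in HGG and 471, 505 and 354 and 439.8, 535 and 384 in EPN. It fell in HGG by 1.82 ± 0.20 while its EPN effect was 0.03 ± 0.20. Mta1, a subunit of a deacetylase complex, and Kat2a, an acetyltransferase, had differences of 1.72 and 1.07, and Gatad2b, of the same complex as Mta1, one of -1.63. In these 4 the difference was carried by HGG.

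Signalling lists differed in their called members. Of 19 BMP genes 3 (15.8%, against 3.4% of all genes called lower) were called, all lower in EPN and 0 after GC correction: the receptors Bmpr2 (-2.13) and Bmpr1b (-3.31) and the signal carrier Smad9 (-2.77). Bmpr2 rose in HGG, from 392, 522 and 546 to 1257, 1434 and 1980.0, and stood at 1135, 1132 and 1246 and 989.5, 555 and 1114 in EPN. Of 16 ERK feedback genes, which ERK signalling switches on, 3 (18.8%, against 6.2% of all genes) were called and 0 after GC correction. Egr1 (1.95) and Phlda1 (2.06) were higher in EPN, and Il17rd (-2.45), an inhibitor of FGF signalling, was lower. Rela, the NF-kB subunit that is fused in many ependymomas, fell in HGG by 1.22 ± 0.25 and had an EPN effect of 0.19 ± 0.25, a difference of 1.42 ± 0.36 (limma adjusted p = 0.0452). After GC correction the difference of Rela was not called. The tumour suppressors Nf1 and Trp53 had differences of -0.69 ± 0.29 and 0.86 ± 0.42, neither called, and that of Nf1 was 0.53 after GC correction. Of 18 chondrogenic targets of SOX9 none was called, with median effects of 0.16 in EPN and 0.97 in HGG. The EPN median was -0.53 without EPN control 1 and -0.13 and -0.06 without EPN Sox9-GOF 1 and 3. Of 26 cell cycle genes none was called, with medians of 0.38 in EPN and 0.05 in HGG, where it ran from -0.30 without HGG control 2 to 0.55 without HGG control 1.

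Lists of metabolism, ribosomal proteins, interferon response and lymphocytes had mostly positive differences with few calls, while the microglia and macrophage list (median -1.35, 21 of 23 negative) and the neutrophil list (median -0.96, 4 of 5 negative) lay on the negative side. Of 19 cholesterol synthesis and uptake genes, 17 had a positive difference and 1 (5.26%, against 6.2% of all genes) was called. This was Mvd, an enzyme of the mevalonate pathway, at 478, 416 and 282 and 235, 243 and 162 in HGG and 199, 186 and 207 and 309, 353 and 251 in EPN. Mvd was not called after GC correction. Of 23 hypoxia and glycolysis genes, 21 had a positive difference, with a median of 0.97 that was 0.41 without HGG control 1, and none was called. Vegfa, the vascular growth factor of that list, had 4564, 845 and 589.7 in HGG control, where 1 library was far above the others, 431, 306 and 543 in HGG Sox9-GOF, and 2354, 3472 and 2838 and 3685, 4445 and 8620.1 in EPN. All 24 cytoplasmic ribosomal protein genes had a positive difference, with a median of 0.42 that ran from 0.21 without HGG control 1 to 0.59 without HGG Sox9-GOF 1, and none was called. Of 32 interferon and antigen presentation genes 27 were positive, and of 16 lymphocyte genes 15, with medians of 0.66 and 1.36 and none called. Leaving out 1 library gave 0.21 (without HGG Sox9-GOF 2) to 1.57 (without HGG control 2) for interferon genes and 0.20 (without HGG control 3) to 3.51 (without HGG control 2) for lymphocyte genes. The lymphocyte gene Jchain, of antibody-secreting cells, had 11519.9, 14.8 and 617 in HGG control, 39.4, 3.03 and 3385 in HGG Sox9-GOF, 38.1, 0 and 3.16 in EPN control and 7583, 5080.0 and 1.99 in EPN Sox9-GOF, so single libraries set its group levels.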

How the data were processed

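RNA-seq of mouse brain tumour tissue was used, 12 libraries in 4 groups of 3, grouped by their titles. Per the labels' protocols, a stranded poly(A) kit was used. The submitters' processing notes name DESeq2 1.30.1, STAR 2.5.0a, MultiQC 1.11, FastQC 0.11.7 and the build mm10. How reads were counted, by which annotation and with what use of strand, is not given in the sources used here. Overlapping and antisense genes are therefore uncertain. As deposited by the authors, each value is a signal: the values show reads per gene over 1 depth factor a library. Whole reads were recovered for 100% of values, within 0.001 read. Names of 27 genes had become dates and are not named. 0 sample columns were left unused.

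Reads were scaled together by the median of ratios. The main test was limma 3.58.1 with a trended variance in R 4.3.3 on log2(scaled count + 1), for genes averaging 10 or more scaled counts, fitting 4 group means, p-values adjusted by Benjamini-Hochberg and called under 0.05. edgeR 4.0.16 and DESeq2 1.42.0 on recovered reads were alternatives. The GC and length correction regressed each library on splines with 5 degrees of freedom, using the longest GENCODE transcript of GRCm38. On simulated data the fit recovered the size of the changes but did not call most of the smaller ones. A first criterion, on the share of changed genes called, failed and was replaced after this was seen. Low counts of calls therefore do not show that effects are absent. Other alternatives were scaling, pseudocount, filter, library weights, spread from 15 libraries, the replicate block and leaving out each library.

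Same-numbered control and Sox9-GOF libraries correlated in their deviations at 0.175, 0.447 and 0.220 in HGG and at -0.095, 0.017 and 0.282 in EPN. Differently numbered ones ran from -0.490 to 0.300 in HGG and from -0.271 to 0.286 in EPN. The HGG value of 0.300, for control 3 with Sox9-GOF 1, lay above 2 of the same-numbered ones. These values do not settle whether libraries were paired, and the labels state no pairing. Depth limits the precision of low genes.

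The members and lists were chosen with earlier results of these data known. The rule names Sox9, Nf1, Trp53, Rela, the 6 largest called opposite differences in each direction and the 6 highest and 6 lowest same-direction genes (both among genes averaging at least 1 log2 CPM whose groups do not overlap in either model, without predicted models and sex-linked genes), up to 4 of each list, taken by smallest adjusted p, and called Sox members. The 39 lists held 749 members, 704 of them tested. Zfta was not analysed here, and a gene that the rule names is not reported here.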

Additional observations from a re-analysis of the deposited data

Results flagged for a closer look

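The 938 genes with a called difference are listed for a closer look because the limma test of the difference passed in the main fit. After the GC and length correction 106 genes were called, and 44 were called without EPN control 3. The part of library composition in these calls was not tested. Called genes named in the text, and others that the rule for named genes picks from the lists, are given here with their difference, EPN minus HGG, in log2 of scaled count + 1.

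Genes with a negative difference were Gal -7.32, Tnn -6.44, Npy2r -5.90, Dgkb -5.82, Scg2 -5.29, Sv2c -5.19, Tnr -4.40, Fut9 -4.36, Eda2r -4.34, Ncam2 -3.85, Nebl -3.78, Nrxn3 -3.45, Pclo -3.42, Erbb4 -3.36, Abca5 -3.33, Bmpr1b -3.31, Rgs5 -3.29, Lum -3.26, Pcdh15 -3.22 and Rab39b -3.16. Further ones, closer to 0, were Cadm2 -3.14, Zbtb20 -3.14, Elavl4 -3.12, Slco1c1 -3.03, P2ry12 -3.00, Rorb -2.98, Chrdl1 -2.96, Ptprz1 -2.91, Tspan12 -2.77, Smad9 -2.77, Nlgn1 -2.72, Gpr85 -2.69, Fras1 -2.60, Il17rd -2.45, Ddah1 -2.39, Ugt8a -2.23, Zfp605 -2.20, Bmpr2 -2.13, Map2 -1.84, Gatad2b -1.63, Maml2 -1.41 and Sox9 -1.37.

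Genes with a positive difference were Scand1 4.49, Mir6236 4.43, Nrtn 3.53, Zfp771 3.29, Tbx6 3.26, Tmem238 3.21, Hes7 3.01, Jund 2.52 and Tcf7 2.50, followed by Ier2 2.36, Phlda1 2.06, Klf2 2.03, Egr1 1.95, Hdac7 1.85, Mta1 1.72, Bbc3 1.53, Rbm42 1.52, Mvd 1.47, Rela 1.42 and Kat2a 1.07.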

How the results depend on the processing

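Of 938 called differences, DESeq2 gave 2467, the spread of 15 libraries 1515, the GC and length correction 106, that correction with the replicate block 0, and the correction with recentring, chosen after seeing the data, 1. The replicate block alone gave 361, 0 calls for EPN and 2 for the average. The 1890 HGG calls became 3134 with DESeq2, 963 with library weights, 86 with the correction, 1 with correction and block and 79 with recentring. The 3 EPN calls became 0 with edgeR, 459 with DESeq2, 134 with the 15-library spread, 411 with library weights, and 0 with the correction, alone, blocked or recentred. The single average call became 1125 with DESeq2 and 46 with the 15-library spread. Opposite calls were 12 and same-direction calls 1 with DESeq2, and 0 under the other settings run. Leaving out 1 library gave 44 to 2145 for the difference, 0 to 189 for EPN, 573 to 2362 for HGG and 1 to 537 for the average, and 0 for opposite and same direction. TMM scaling gave 933 differences, with 361 higher and 572 lower. Of the single genes, Nf1 changed sign, to 0.53 with the correction, alone or blocked, and 0.31 recentred. The cause of these changes was not tested. Low read numbers limit Gal, Hes7 and Hormad2, among others. Tbx6 had 8, 1 and 1 reads and Nrtn 7, 6 and 3 in HGG Sox9-GOF. Coro6 had 3, 0 and 3 reads and Plk5 3, 1 and 1 in EPN Sox9-GOF.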
